A study of Mus musculus with 47 samples.

Results

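The genes of choline oxidation and of phosphatidylcholine synthesis were followed across the cerebral cortex of 47 mice aged 6 months. The 9 genes were taken by name out of the 48795 rows of the deposited tables, and all 9 passed the filter on low counts that left 19174 genes for testing. They are Chdh and Aldh7a1 for choline oxidation, Slc44a1 and Slc44a2 for choline transport, and Chka, Chkb, Pcyt1a, Pcyt1b and Cept1 for the CDP-choline route. The set was chosen by name with earlier results of these data in view, and selected on the higher Chdh counts of mice with Q140. Differences of the 9 genes with Q140 are therefore given as a description without a test.

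RNA came from whole cortex, and libraries were made with a strand-specific kit. The mice formed 6 genotypes on a background labelled C57BL: Q140 Ccdc82-/- (7 mice), Ccdc82-/- (8 mice), Q140 Ccdc82+/- (8 mice), Ccdc82+/- (8 mice), Q140 (8 mice) and WT (8 mice). Each group held 4 males and 4 females, except Q140 Ccdc82-/- with 4 males and 3 females. Q140 is a knock-in of an expanded CAG repeat into the mouse Huntington's disease gene Htt, which the sample titles give as heterozygous in every mouse that carries it, and Ccdc82+/- and Ccdc82-/- mice carry 1 or no intact copy of Ccdc82. The sources used here do not give which part of Ccdc82 was removed. Libraries held 43554594 to 61370843 counts, with a median of 50473683.

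Choline taken up by a cell has several fates. In mitochondria, choline dehydrogenase and then betaine aldehyde dehydrogenase oxidise it to betaine, an osmolyte and methyl donor; this route is best known from liver and kidney. In the CDP-choline (Kennedy) route, choline kinase makes phosphocholine, a transferase then makes CDP-choline in the step that usually sets the pace, and a phosphotransferase joins it to diacylglycerol to give phosphatidylcholine, a main lipid of neuronal and myelin membranes.

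Promoter sequences are shown for Chdh, the gene with the difference between mice with and without Q140, and for Cept1 and Chkb, which differed between the sexes. Each is the first RefSeq promoter of the gene on GRCm38.p6, 250 bases before to 50 bases after the start, read 5′ to 3′ on the strand of the gene: chr14:30008750-30009049 (plus) for Chdh, chr3:106547753-106548052 (minus) for Cept1 and chr15:89429878-89430177 (minus) for Chkb. Capitals mark matches on either strand to the GC box GGGCGG, the CCAAT box and the TATA box motif TATAAA; the E box motif CACGTG was also searched and has no match in these windows.
Chdh: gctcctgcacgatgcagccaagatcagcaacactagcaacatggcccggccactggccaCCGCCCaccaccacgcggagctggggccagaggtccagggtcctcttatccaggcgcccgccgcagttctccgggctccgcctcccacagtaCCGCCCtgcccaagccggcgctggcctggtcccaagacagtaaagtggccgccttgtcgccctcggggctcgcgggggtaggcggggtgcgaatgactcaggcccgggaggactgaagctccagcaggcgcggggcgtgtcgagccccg
Cept1: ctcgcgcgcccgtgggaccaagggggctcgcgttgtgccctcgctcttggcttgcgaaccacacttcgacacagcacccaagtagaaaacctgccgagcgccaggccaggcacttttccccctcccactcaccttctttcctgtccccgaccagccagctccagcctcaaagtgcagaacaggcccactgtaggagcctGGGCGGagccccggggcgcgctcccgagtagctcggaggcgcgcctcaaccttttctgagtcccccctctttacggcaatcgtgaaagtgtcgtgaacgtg
Chkb: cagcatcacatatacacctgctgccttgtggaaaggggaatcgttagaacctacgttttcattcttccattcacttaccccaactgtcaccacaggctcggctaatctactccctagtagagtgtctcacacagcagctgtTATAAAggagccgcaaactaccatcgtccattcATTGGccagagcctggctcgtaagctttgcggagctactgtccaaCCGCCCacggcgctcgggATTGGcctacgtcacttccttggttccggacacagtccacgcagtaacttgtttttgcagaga

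The Chdh window is 70.3% G and C with 26 CpG sites, and holds 2 GC boxes and no CCAAT or TATA box. The Cept1 window is 64.0% G and C and holds 1 GC box. Chdh and Cept1 have further RefSeq promoters that are not shown. Those of Chdh hold 0 GC boxes each, and those of Cept1 hold 3 and 0. The Chkb window is 51.7% G and C, close to the median of 52.7% over 32851 promoters outside chromosome 18, and holds 1 GC box, 2 CCAAT boxes and 1 TATA box. Over those promoters of equal length, GGGCGG occurs in 35.7%, CCAAT in 37.4%, TATAAA in 13.6% and CACGTG in 7.15%. These matches describe the letters only, and no binding was measured.

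The 2 genes of choline oxidation were the highest and the lowest of the 9 in WT cortex, with the transporters and the CDP-choline route between them. On the length-scaled FPKM scale, Aldh7a1 led with 14.3 ± 0.852 FPKM and Chdh came last with 0.514 ± 0.050 FPKM (SD, n = 8 WT mice). Slc44a2 (10.7 FPKM), Pcyt1b (10.1 FPKM), Cept1 (9.83 FPKM) and Slc44a1 (8.99 FPKM) followed, and their ranges over mice overlapped from each to the next, while that of Aldh7a1 lay above them. Chka (7.63 FPKM) and Pcyt1a (7.5 FPKM) overlapped each other and lay above Chkb (4.31 FPKM), whose range was separate from both of its neighbours. Chkb was in turn 8.38-fold above Chdh. Among the 19174 tested genes, Aldh7a1 stood at percentile 80.2 of WT FPKM, Chkb at 53.5 and Chdh at 20.7. The FPKM of Slc44a2, Chkb and Pcyt1a depend on the transcript length the authors used: the tables imply 3456, 5805 and 5751 bases, against 8677, 3061 and 7412 exonic bases in GENCODE M21. Rescaled to the GENCODE lengths, a choice made after seeing the data, WT means were 4.26 FPKM for Slc44a2, 8.17 FPKM for Chkb and 5.82 FPKM for Pcyt1a. This moved Slc44a2 to the place above Chdh and Chkb above Chka. Aldh7a1 remained first and Chdh last, at 14.3 and 0.508 FPKM. The rescaling changed the length only and kept the counts of the authors. Counts over the GENCODE exons could differ and were not made, so the places of Slc44a2, Chkb and Pcyt1a are not settled.

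Chdh, on chromosome 14 (14:30009023-30040527, plus strand, GRCm38), was higher in mice with Q140 at each dose of Ccdc82. In TMM-normalised CPM, counts scaled to library size, Q140 Ccdc82-/- mice had 4.21, 4.72 and 5.28 CPM (lowest, median and highest of 7), against 2.99, 3.73 and 4.33 CPM in Ccdc82-/- mice (n = 8). Q140 Ccdc82+/- mice had 3.69, 4.5 and 5.65 CPM, against 3.16, 3.63 and 5.04 CPM in Ccdc82+/- mice (n = 8 each). Q140 mice had 3.71, 4.47 and 5.90 CPM, against 2.69, 3.12 and 3.70 CPM in WT mice (n = 8 each). The ranges of Q140 and WT mice did not overlap, while those of the other 2 pairs did. The Ccdc82+/- pair overlapped most through 1 Ccdc82+/- male at 5.04 CPM. How often ranges stay apart over all tested genes was not computed. Because Chdh was chosen on its difference with Q140, nothing further is read from the separate ranges.

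**Figure D1:**
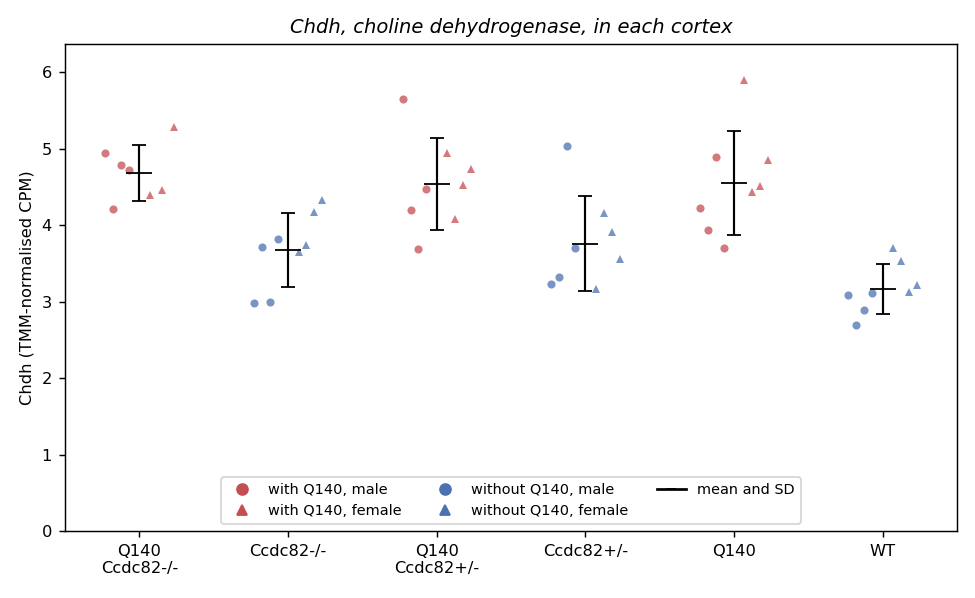
Chdh in TMM-normalised CPM (vertical axis, from 0) for each mouse in the 6 genotypes; circles are males, triangles females, red with Q140 and blue without, and bars give the mean and SD. The red points lie between 3.69 and 5.90 CPM and the blue ones between 2.69 and 5.04 CPM, with WT the lowest group.

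Chdh averaged 4.59 ± 0.548 CPM in the 23 mice with Q140 and 3.54 ± 0.541 CPM in the 24 mice without it (SD). In bulk tissue, more cells of a type and more RNA per cell cannot be told apart. The fitted log2 difference, averaged over the 3 Ccdc82 genotypes, was 0.38 (SE 0.051), which is a 1.31-fold higher level with Q140. Against the mean of the mice with the same Ccdc82 genotype and sex but no Q140, 22 of the 23 mice with Q140 were higher. By genotype, the log2 difference was 0.36 (SE 0.089) for Q140 Ccdc82-/- against Ccdc82-/-, 0.27 (SE 0.086) for Q140 Ccdc82+/- against Ccdc82+/- and 0.52 (SE 0.087) for Q140 against WT. With 132 to 279 counts per library, Chdh was the gene of the 9 with the fewest reads and the widest residual spread, an SD of 0.17 on the log2 scale against 0.06 to 0.09 for the others. Of all tested genes, 0.876% were called in the pooled Q140 contrast, 0.0313% in Q140 against WT, 0.0313% on Ccdc82+/- and 0.0209% on Ccdc82-/- at an adjusted p under 0.05. These shares are background only, and nothing is read from calls of the 9 genes in these contrasts, since Chdh was chosen on them.

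Chdh shares 589 exonic bases (9.47% of its exons) with the calcium channel gene Cacna1d on the opposite strand, which held 3652 counts per library on average against 204.6 for Chdh. No source used here says whether reads were counted by strand, so reads of the 2 genes in that stretch cannot be told apart. Cacna1d itself had a pooled Q140 log2 difference of 0.00 (SE 0.020, adjusted p = 0.990, edgeR). With so many more reads in Cacna1d, that value does not bear on reads of Cacna1d counted to Chdh, and their part in the Chdh difference was not tested.

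The other 8 genes had pooled Q140 log2 differences between -0.01 and 0.04, and the median over all 9 was 0.02, against 0.00 over all tested genes. Aldh7a1, which oxidises betaine aldehyde and also the lysine product aminoadipic semialdehyde, averaged 72.3 ± 4.82 CPM with Q140 and 72.4 ± 3.62 CPM without (SD, n = 23 and 24), a log2 difference of 0.00 (SE 0.021). In FPKM, the ratio of Aldh7a1 to Chdh was 20.0 ± 3.09 in Q140 mice and 27.99 ± 3.10 in WT mice (SD, n = 8 each). The choline transporter-like genes Slc44a1 and Slc44a2 had 64.0 and 37.1 CPM on average with Q140, against 62.4 and 37 CPM without. Their log2 differences were 0.04 (SE 0.021) for Slc44a1 and 0.00 (SE 0.020) for Slc44a2.

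Within the CDP-choline route, no enzyme was offset by more than 0.03 on the log2 scale in the pooled Q140 contrast. The choline kinases Chka and Chkb, which make phosphocholine, had 91.8 and 24.8 CPM on average with Q140, against 90.6 and 24.9 CPM without. The transferases Pcyt1a and Pcyt1b, which make CDP-choline from phosphocholine, had 43.7 and 55.5 CPM with Q140, against 43.2 and 54.4 CPM without. Cept1, which joins CDP-choline or CDP-ethanolamine to diacylglycerol, had 31.1 ± 1.82 CPM with Q140 and 30.6 ± 1.64 CPM without (SD, n = 23 and 24). The ranges of Q140 and WT mice overlapped for each of these 8 genes. The largest single difference among them was that of Pcyt1b in Q140 against WT, at 0.07 (SE 0.029), and the same gene differed by 0.00 (SE 0.029) on Ccdc82+/- and 0.01 (SE 0.030) on Ccdc82-/-.

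**Figure D2:**
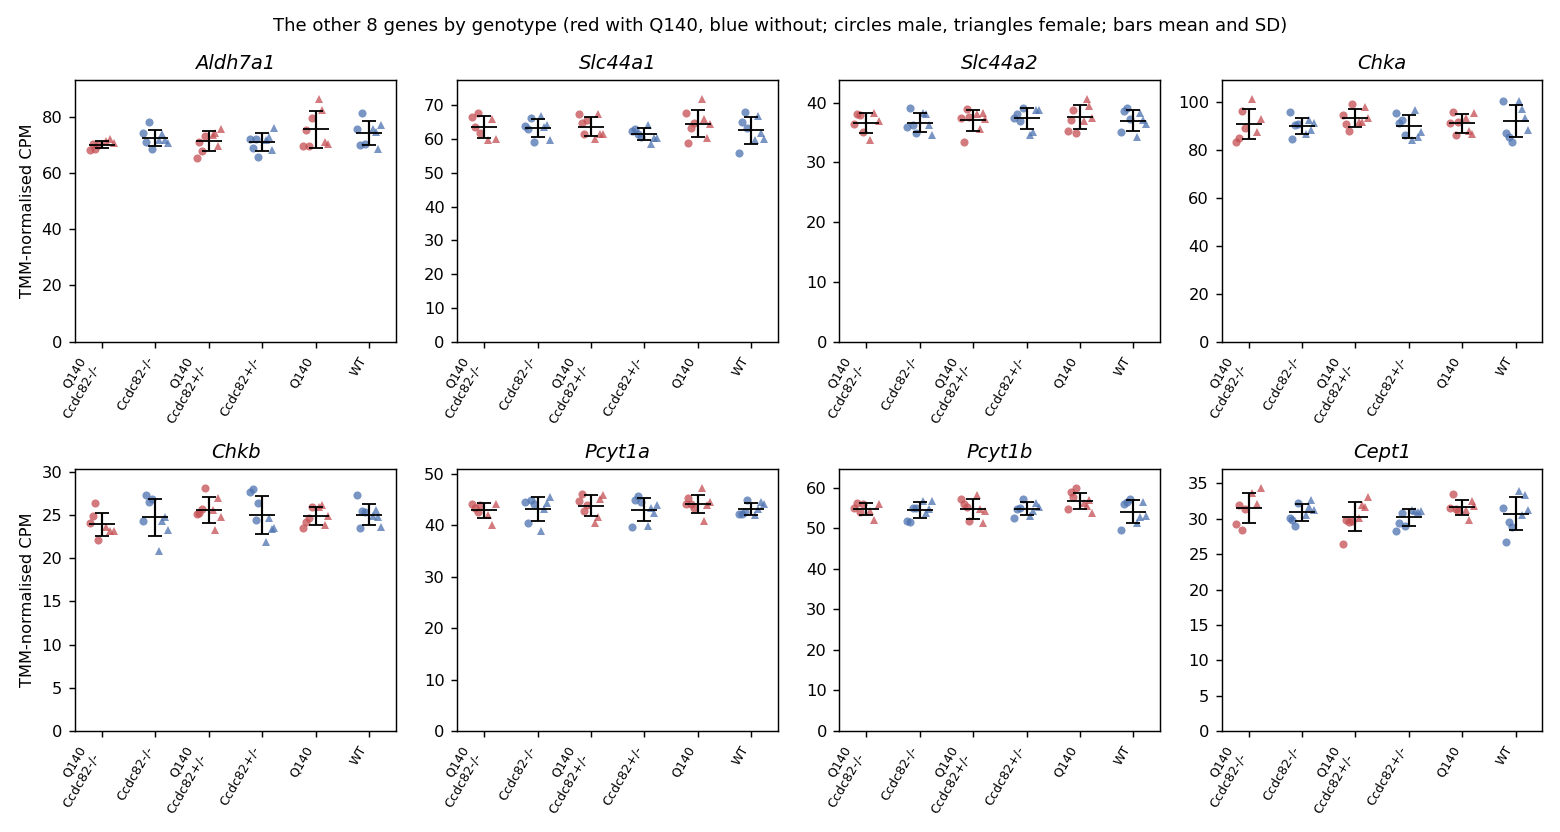
TMM-normalised CPM (vertical axes, from 0) of the 8 other genes for each mouse, by genotype; circles are males, triangles females, red with Q140 and blue without, and bars give the mean and SD. All groups overlap for every gene, and the highest Aldh7a1 value, 86.2 CPM, is from a Q140 female.

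Ratios between paralogs varied little over the genotypes. In FPKM, the ratio of Chka to Chkb was 1.84 ± 0.154 in Q140 Ccdc82-/- mice (n = 7) and between 1.74 and 1.77 on average in the other 5 genotypes. The ratio of Pcyt1b to Pcyt1a averaged 1.34 in WT mice and at most 1.38, in Q140 mice. The ratio of Slc44a1 to Slc44a2 averaged between 0.820 and 0.866. The size of 3 of these genes' FPKM rests on the transcript length. At the GENCODE lengths the WT mean was 0.935 for Chka over Chkb and 2.11 for Slc44a1 over Slc44a2, both on the other side of 1. For Pcyt1b over Pcyt1a it was 1.73. These values keep the counts of the authors, so which gene of the first 2 pairs is higher is not settled. Differences between genotypes are not touched by the length. No test was run on these ratios, and the genotype means lay within 1 SD of the WT mean for Chka over Chkb and Pcyt1b over Pcyt1a.

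Loss of Ccdc82 was seen first in Ccdc82 itself. It averaged 5.51 CPM in Q140 Ccdc82-/- mice, 5.32 CPM in Ccdc82-/- mice, 11.4 CPM in Q140 Ccdc82+/- mice and 10.9 CPM in Ccdc82+/- mice, against 15.6 CPM in Q140 mice and 16.2 CPM in WT mice. The mutant ranges did not overlap those of mice with intact Ccdc82. Reads therefore remained in the homozygotes, and which exons they came from cannot be read from a table of gene counts. Htt, the edited gene of Q140, differed by -0.07 (SE 0.015, adjusted p = 0.00320, edgeR) in the pooled Q140 contrast.

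None of the 9 genes was called for Ccdc82 loss. In edgeR's quasi-likelihood test with Benjamini-Hochberg adjustment over 19174 genes, 0 of 9 passed for Ccdc82-/- or for Ccdc82+/-, pooled over Q140 or taken with and without it, where 0.00522% of all genes (Ccdc82 alone) were called in each of these 6 contrasts. At an unadjusted p under 0.05, 2 of 9 passed for pooled Ccdc82-/- (Chdh and Aldh7a1) and 1 of 9 for pooled Ccdc82+/- (Aldh7a1). The shares of all tested genes were 4.65% and 5.31%. In each of the 4 contrasts of single genotypes 1 of 9 did, against 3.23% to 5.42% of all genes. That gene was Chdh in both mutants against WT, and Aldh7a1 in both contrasts against Q140. Counts that hold Chdh are not read as a result, since the choice of Chdh used these mice. DESeq2 called 0 of 9 in all 6 contrasts. Chdh was higher in both mutants than in WT, but neither difference was called. It was higher by 0.22 (SE 0.089, adjusted p = 0.999, edgeR) in Ccdc82-/- mice and by 0.25 (SE 0.089, adjusted p = 0.993, edgeR) in Ccdc82+/- mice. These 2 comparisons and Q140 against WT share the same 8 WT mice, which had the lowest Chdh of the 6 genotypes, at 3.17 ± 0.323 CPM (SD). The WT mice were also part of the reference when Chdh was chosen, which favours differences above 0 in both comparisons. Between mice that all carried Q140, Chdh differed by 0.05 (SE 0.088) for Ccdc82-/- and by 0.00 (SE 0.085) for Ccdc82+/-.

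Aldh7a1 had the largest values below 0. Its log2 difference was -0.07 (SE 0.026) for pooled Ccdc82-/-, with an adjusted p of 1, and -0.07 (SE 0.026) for pooled Ccdc82+/-, with an adjusted p of 0.905 (edgeR). For the other 7 genes the pooled differences lay between -0.04 and 0.02, and their 95% intervals reached no further than -0.10 and 0.08. Slc44a2 lies on chromosome 9, 8.03 Mb from Ccdc82, and differed by -0.02 (SE 0.025) in pooled Ccdc82-/- and by 0.00 (SE 0.025) in pooled Ccdc82+/-.

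**Figure D3:**
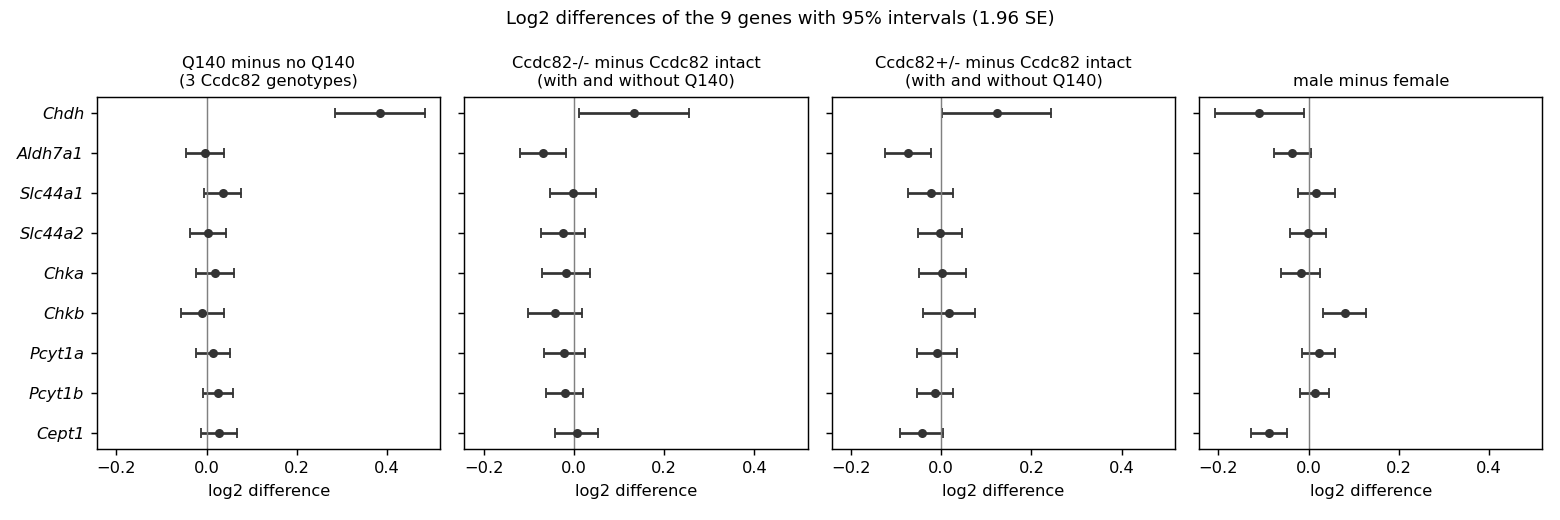
Log2 differences (horizontal axes) of the 9 genes in 4 contrasts, with 95% intervals as bars: Q140 minus no Q140, Ccdc82-/- and Ccdc82+/- each minus intact Ccdc82, and male minus female. Chdh lies at 0.38 in the Q140 contrast, which is a description because that contrast chose it; Cept1 (-0.09) and Chkb (0.08) are the 2 genes called between the sexes.

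The Q140 difference was not shown to depend on Ccdc82 or on sex for any of the 9 genes. The interaction of Q140 with Ccdc82-/- was -0.16 (SE 0.125) for Chdh and that with Ccdc82+/- was -0.25 (SE 0.123), both with an adjusted p of 1 in edgeR. The 95% interval of the second, before adjustment, ran from -0.49 to -0.01. Both interactions subtract the difference of Q140 against WT, which is part of the contrast that Chdh was chosen on. Choice on a high value there favours interactions below 0, so for Chdh these values are a description and not a test. For the other genes the 2 interactions lay between -0.07 and 0.07. The Q140 difference in males minus that in females was 0.04 (SE 0.101) for Chdh and lowest for Chkb, at -0.11 (SE 0.046, adjusted p = 1). Each interaction called 0 of 9 genes, and 0% of all tested genes. At an unadjusted p under 0.05 there were 0 of 9 for Ccdc82-/-, 1 of 9 for Ccdc82+/- and 1 of 9 for sex. The shares of all genes were 2.96%, 3.52% and 4.01%. The gene for Ccdc82+/- was Chdh, so that count is part of the description and not a test. The gene for sex was Chkb. DESeq2 also called 0 of 9 in each.

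Differences between the sexes were small, and passed for Cept1 and Chkb. Of the 9 genes, 2 passed in male against female, against 10.5% of all tested genes. Mice that share a number in the library name were all of the same sex. The edgeR sex tests here and below took such mice as independent, and fewer genes passed with that number as a random block. Cept1 (3:106502260-106547802, minus strand) had 26.4, 29.7 and 33.5 CPM in males (lowest, median and highest of 24), against 29.8, 31.6 and 34.3 CPM in females (n = 23). It fell to a mean of 30.0 ± 1.68 CPM in males, against 31.8 ± 1.22 CPM in females (SD), a log2 difference of -0.09 (SE 0.020, adjusted p = 0.00337, edgeR). The male mean was lower in 5 of 6 genotypes. Q140 mice were the exception, with 31.9 CPM in males and 31.3 CPM in females. With 3 or 4 mice per sex, the sexes did not overlap in 3 genotypes for Cept1. The same occurred in 1 genotype each for Chdh and Aldh7a1, which were not called. How often it occurs over all tested genes was not computed. Cept1 shares 24.7% of its exonic bases with Dennd2d on the opposite strand, which held 11.9 counts per library on average. Dennd2d differed by -0.20 (SE 0.140, adjusted p = 0.386, edgeR) in males against females. The part of the shared stretch in the Cept1 difference was not tested.

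Chkb (15:89426360-89429908, minus strand) had 22.1, 25.4 and 28.1 CPM in males, against 20.8, 24.3 and 27 CPM in females. The sexes overlapped widely, and the male mean was higher in 5 of 6 genotypes, again with Q140 mice as the exception. The log2 difference was 0.08 (SE 0.025, adjusted p = 0.0293, edgeR). This call was lost, at 0.08 with an adjusted p of 0.0808, when the number within the library name was fitted as a random block, and in a linear fit of log2 CPM without Ccdc82-/- male 2 (adjusted p = 0.0522), Ccdc82+/- male 1 (0.0513) or Ccdc82+/- male 2 (0.0526). In GENCODE M21 a transcript unit that reads through Chkb, Gm44502, covers 50.7% of its exonic bases on the same strand. Gm44502 has no entry of its own in the deposited counts. The length implied for Chkb was 5805 bases, against 3061 in GENCODE M21. No source used here says which bases the Chkb entry spans, so reads given to Chkb are uncertain.

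Chdh was 3.92 ± 0.804 CPM in males and 4.19 ± 0.695 CPM in females (SD, n = 24 and 23), a log2 difference of -0.11 (SE 0.051, adjusted p = 0.159, edgeR) that did not pass. In the linear fit of log2 CPM its adjusted p was 0.122, and 0.0347 (log2 difference -0.14) without Ccdc82+/- male 3, the male with the highest Chdh among mice without Q140. The remaining 6 genes differed between the sexes by -0.04 to 0.02, with adjusted p between 0.287 and 0.966. Markers of other cells moved with sex as well, where 5.26% of all tested genes were higher and 5.27% lower in males. In males 3 of 14 mature oligodendrocyte, 3 of 7 oligodendrocyte precursor, 2 of 14 astrocyte and 2 of 11 endothelial and pericyte markers fell and 0 rose. Newly formed oligodendrocyte markers went both ways, with 2 of 6 lower and 1 higher, and 2 of 7 inhibitory neuron markers rose and 0 fell. The other 5 lists had 0 called in edgeR, with 3 of 10 meningeal fibroblast, 3 of 10 microglia, 1 of 8 excitatory neuron, 1 of 4 choroid plexus and ependyma and 0 of 5 red blood cell markers at an unadjusted p under 0.05. Summed levels of mature oligodendrocyte markers ran from 1797 to 2894 CPM in males and from 2178 to 3135 CPM in females, those of precursors from 139 to 174 CPM in males and from 148 to 185 CPM in females, and those of inhibitory neurons from 910 to 1024 CPM in males and from 892 to 986 CPM in females. Those of newly formed oligodendrocytes ran from 158 to 199.9 CPM in males and from 172 to 248 CPM in females, those of astrocytes from 8157 to 9918 CPM in males and from 8212 to 9434 CPM in females, and those of endothelial cells and pericytes from 418 to 479 CPM in males and from 429 to 476 CPM in females. No marker of these lists was at 0 in all libraries. The part of these cells in the differences of Cept1 and Chkb was not tested.

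Other genes of choline and phospholipid metabolism were read from a list of 69, of which 66 were tested. The list was drawn up with earlier results of these data known, so its calls with Q140 are not an independent test. With Q140, 1 of 66 rose and 0 fell, against 0.876% of all tested genes; the median log2 difference was 0.00, as over all genes. The gene that rose was Enpp6, a choline-specific phosphodiesterase of newly formed oligodendrocytes that releases phosphocholine from glycerophosphocholine and lysophosphatidylcholine. It had 3.06, 4.15 and 6.75 CPM with Q140 (lowest, median and highest of 23), against 2.11, 3.04 and 4.62 CPM without (n = 24), a log2 difference of 0.43 (SE 0.077, adjusted p = 0.000641, edgeR). Means were 3.99 CPM in Q140 Ccdc82-/- mice and 2.71 CPM in Ccdc82-/- mice, 4.08 CPM in Q140 Ccdc82+/- mice and 3.26 CPM in Ccdc82+/- mice, and 4.23 CPM in Q140 mice and 3.15 CPM in WT mice. Enpp6 is also 1 of the 6 markers of newly formed oligodendrocytes, and it was the only one of them that passed; their summed level ran from 163 to 248 CPM with Q140 and from 158 to 208 CPM without, and none was at 0. The part of these cells in the difference was not tested.

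No other sub-list had a gene past the threshold with Q140. Values with the greatest size in their sub-list were -0.23 (SE 0.118) for Chat, the acetylcholine-synthesising enzyme, -0.09 (SE 0.038) for the ethanolamine kinase Etnk2, 0.08 (SE 0.089) for the glycine methyltransferase Gnmt and 0.07 (SE 0.026) for the sphingomyelin synthase Sgms1, with adjusted p of 0.565, 0.407, 0.867 and 0.365 in edgeR. All 15 tested genes of betaine use and the methionine cycle, the pathway that Chdh feeds, lay between -0.04 and 0.08. Neither loss of both copies nor of 1 copy of Ccdc82 called any of the 66 genes in edgeR, where 0.00522% of all genes passed; at an unadjusted p under 0.05, 4 and 3 of the 66 did.

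**Figure D4:**
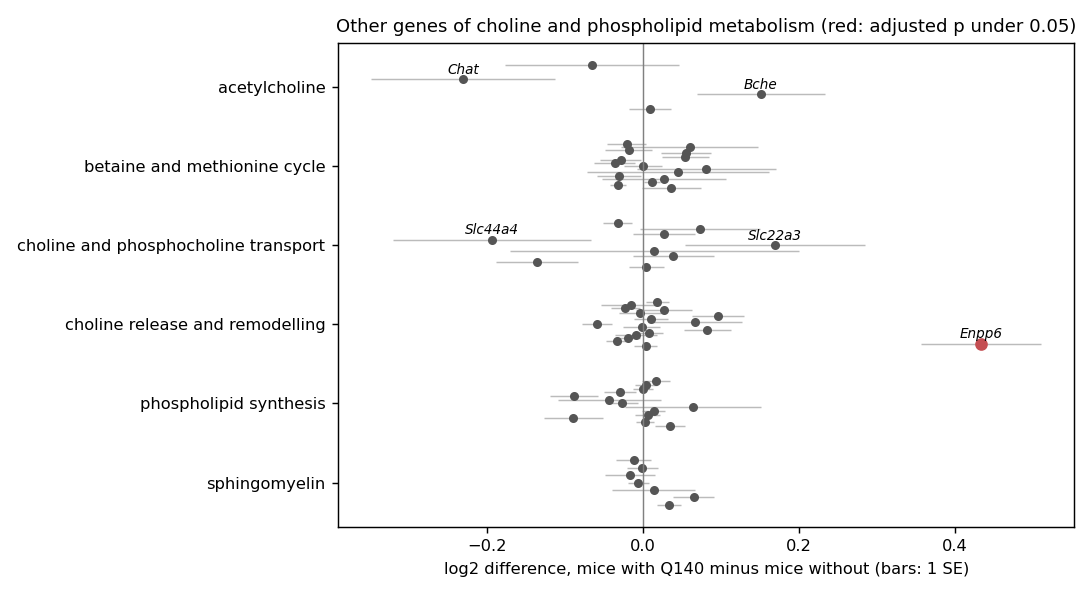
Pooled Q140 log2 differences (horizontal axis, bars 1 SE) of 65 of the 66 tested genes of 6 lists around choline and phospholipid metabolism, none of them among the 9 genes above. Enpp6 at 0.43, in red, is the only one of the 66 with an adjusted p under 0.05, on a list drawn up with earlier results of these data known. Named grey points lie further than 0.14 from 0.

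Between the sexes, 0 of the 66 genes rose and 4 fell in males, against 5.26% and 5.27% of all tested genes. Enpp2 (autotaxin, which releases choline from lysophosphatidylcholine) averaged 203.0 CPM in males and 217.0 CPM in females, a log2 difference of -0.10 (SE 0.015, adjusted p = 3.6e-05, edgeR). The neutral sphingomyelinase Smpd3 averaged 79.1 CPM in males and 84.0 CPM in females, a difference of -0.09 (SE 0.020, adjusted p = 0.00358). The phospholipase Pla2g6 and the ethanolamine kinase Etnk1 differed by -0.07 (SE 0.021) and -0.04 (SE 0.011), with adjusted p of 0.0362 and 0.0250. The median over the 66 genes was -0.02, against 0.00 over all tested genes.

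The 9 genes also varied between mice of the same genotype and sex. Over 47 mice, with genotype and sex means removed from log2 CPM, 5 of 36 pairs had an adjusted p under 0.05 (permutation test, 100000 resamples, two-sided, Benjamini-Hochberg over 36 pairs). The share of all gene pairs that would pass was not computed, so this count is not read as a trait of the pathway. The strongest was Slc44a1 with Cept1, the first and last genes of the route, which moved in opposite directions (r = -0.58, rho = -0.54, adjusted p = 0.00180 and 0.00648). Without the 2 mice farthest from the median of Slc44a1, r was -0.55, and with means of the library-name number also removed it was -0.43.

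The other 4 pairs were weaker. Chka and Pcyt1b had r = -0.45 (rho = -0.44, adjusted p = 0.0288 and 0.0244 by permutation), which was -0.43 without the 2 farthest mice and -0.29 after removal of the library-name number. Slc44a2 with Cept1 had r = -0.42 (rho = -0.42, adjusted p = 0.0374 and 0.0289 by permutation), -0.42 without the 2 farthest mice and -0.27 after removal of the plate column. Slc44a2 with Chka had r = -0.41 (rho = -0.45, adjusted p = 0.0382 and 0.0244 by permutation), -0.41 without the 2 farthest mice and -0.26 and -0.22 after removal of the plate column and of the library-name number. Chdh moved with Pcyt1a (r = 0.39, adjusted p = 0.0490 by permutation), but its rho of 0.34 had an adjusted p of 0.103; r was 0.36 without the 2 farthest mice. Chdh and Aldh7a1, the consecutive steps of choline oxidation, had r = -0.14 (rho = -0.24, adjusted p = 0.610 and 0.402 by permutation).

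Each gene was also set against 11 lists of cell type markers in the same mice, and 12 of 99 pairs had an adjusted p under 0.05 (permutation test, two-sided, 100000 resamples, Benjamini-Hochberg over 99 pairs). How often any tested gene would pass against these lists was not computed, so the count is a description of these genes only. Aldh7a1 followed the 14 astrocyte markers most closely (r = 0.72, rho = 0.68, adjusted p = 0.000330 and 0.000990). That r was 0.65 without the 2 farthest mice, 0.71 with plate column means removed and 0.55 with library-name number means removed. Aldh7a1 also moved with markers of endothelial cells and pericytes (r = 0.64), newly formed oligodendrocytes (0.55), oligodendrocyte precursors (0.52) and microglia (0.50), with adjusted p between 0.000330 and 0.00371 by permutation; the rho for microglia had an adjusted p of 0.0515. Without the 2 farthest mice these 4 values were 0.52, 0.42, 0.40 and 0.34. With library-name number means removed they were 0.50, 0.35, 0.21 and 0.28, so the last 3 were lower by over 1.5 times. The scores of these lists share the same libraries.

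Slc44a1 moved with mature oligodendrocyte markers (r = 0.64, rho = 0.47, adjusted p = 0.000330 and 0.0139 by permutation), and r was 0.50 without the 2 farthest mice and 0.46 with the library-name number removed. Its r was 0.51 with newly formed oligodendrocytes (0.39 without the 2 farthest mice) and 0.51 with precursors (0.55 without them), with adjusted p of 0.00337 and 0.00339 by permutation; with the library-name number removed both were 0.44. Against excitatory neuron markers its r was -0.44 (adjusted p = 0.0179 by permutation), which was -0.41 without the 2 farthest mice and -0.03 with the library-name number removed. The rho of Slc44a1 with newly formed oligodendrocytes (0.39) and with excitatory neurons (-0.40) each had an adjusted p of 0.0515 by permutation. Cept1 ran the other way, with r = -0.47 against mature oligodendrocyte markers (rho = -0.48, adjusted p = 0.00935 and 0.0129 by permutation), -0.42 without the 2 farthest mice and -0.38 and -0.40 with plate column and library-name number removed. Chkb ran against inhibitory neuron markers (r = -0.42, adjusted p = 0.0275 by permutation) and Pcyt1b against those of choroid plexus and ependyma (r = -0.42, adjusted p = 0.0289 by permutation), but the adjusted p of their rho were 0.0515 and 0.0527. Without the 2 farthest mice these r were -0.45 for Chkb and -0.37 for Pcyt1b, and with the library-name number removed -0.41 and -0.18. Chdh had no list with r beyond 0.25. With the library-name number removed, its r ran from -0.20 for choroid plexus and ependyma to 0.40 for red blood cell markers. On that measure it was 0.29 for newly formed oligodendrocytes. These values were not tested.

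**Figure D5:**
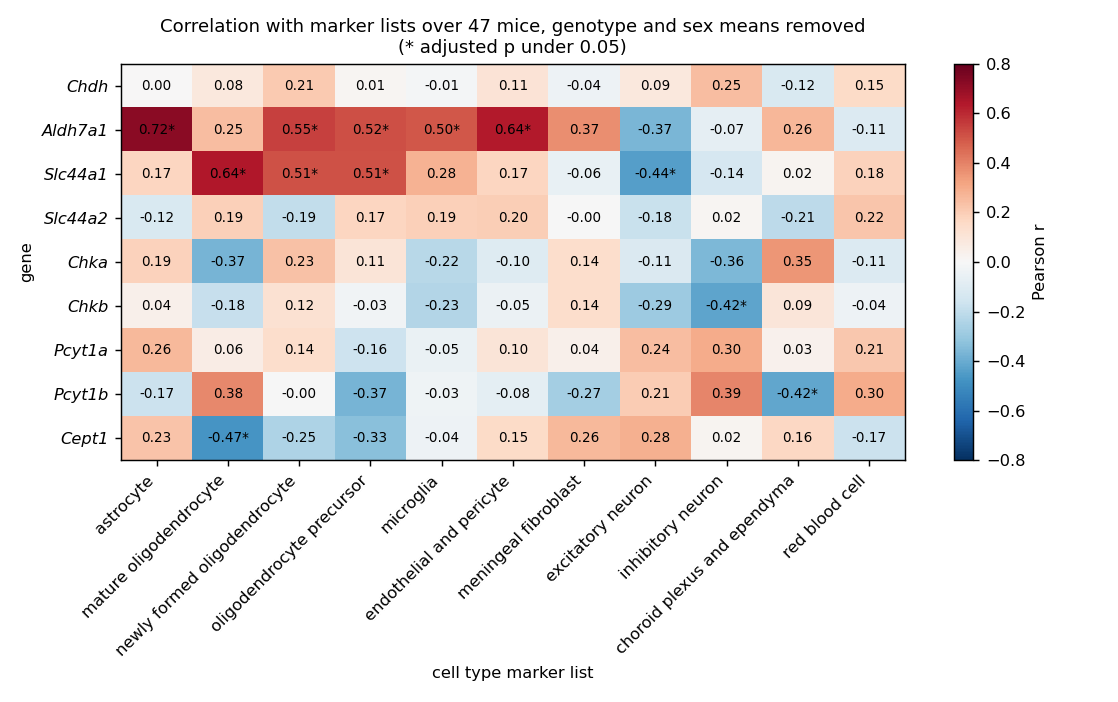
Pearson r (colour and number) between each of the 9 genes (rows) and 11 cell type marker lists (columns) over 47 mice, with genotype and sex means removed from log2 CPM; an asterisk marks an adjusted permutation p under 0.05. The highest values are those of Aldh7a1 with astrocytes (0.72) and of Slc44a1 with mature oligodendrocytes (0.64), and the row of Chdh lies between -0.12 and 0.25.

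Markers of the labelled tissue were present, and all 8 excitatory neuron markers were tested, with summed levels of 5649 to 6301 CPM in mice with Q140 and 5869 to 6587 CPM in mice without. Those of choroid plexus and ependyma summed to 5.37 to 9.10 CPM with Q140 and 5.08 to 9.45 CPM without. The marker lists, too, were chosen with earlier results of these data known. With Q140, where 0.876% of all tested genes were called, 4 of 14 astrocyte, 1 of 8 excitatory neuron and 1 of 14 mature oligodendrocyte markers fell and 0 rose, and 1 of 10 microglia markers and Enpp6 among the newly formed oligodendrocyte markers rose and 0 fell. All 10 meningeal fibroblast markers lay above 0 in the pooled contrast, with a median log2 difference of 0.13, 0 of them called in edgeR and 1 with an unadjusted p under 0.05. Their median was 0.18 for Q140 Ccdc82-/- against Ccdc82-/- (10 of 10 above 0), -0.09 for Q140 Ccdc82+/- against Ccdc82+/- (1 of 10 above 0) and 0.35 for Q140 against WT (10 of 10 above 0, 5 with an unadjusted p under 0.05), beside 0.36, 0.27 and 0.52 for Chdh. Both were thus highest in Q140 against WT and lowest on Ccdc82+/-, where the meningeal median lay below 0 and Chdh above it. Summed levels of the meningeal markers ran from 36.8 to 103 CPM with Q140 and from 43.7 to 88.1 CPM without, and none was at 0. Their part in the Chdh difference was not tested; within genotype and sex, Chdh had r = -0.04 with the meningeal list and 0.00 with the astrocyte list.

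The genes whose residual log2 CPM was most like that of each gene over the 47 mice are given by Pearson r, as a description. For Chdh they were Psmb3 (0.57), Fam132a (0.57), Rps2-ps10 (0.56), Traf5 (0.53) and Anln (0.53), all weaker than the first neighbours of the other 8 genes. For Aldh7a1 they were Cst3 (0.84), Slc1a3 (0.83), which is one of the astrocyte markers, and Ndrg2 (0.82). The transporters had Lactb2 (0.78), Ramp3 (0.78) and Ddx26b (0.76) for Slc44a1, and Repin1 (0.74), Mfsd10 (0.74) and Zfp414 (0.72) for Slc44a2. The choline kinases had Sfpq (0.87), Rnf20 (0.86) and Ubn2 (0.86) for Chka, and Akap8 (0.71), Ewsr1 (0.71) and Adamts10 (0.70) for Chkb. The CDP-choline-making enzymes had Dlc1 (0.79), Ccnd2 (0.78) and Stk40 (0.77) for Pcyt1a, and Eno2 (0.72), Epdr1 (0.70) and D6Wsu163e (0.69) for Pcyt1b. Cept1 had Tspan13 (0.78), Pdp1 (0.77) and Otub2 (0.77). No gene was shared among the neighbours of the 9 genes.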

How the data were processed

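Strand-specific RNA-seq libraries (Illumina TruSeq, per the labels' protocols) of 47 cortices were aligned and counted by the authors; STAR 2.7.5c, SAMtools 1.10, HTSeq 0.12.3 and GRCm38 are named in the submitters' processing notes. No source used here gives the annotation release or the strand setting. The authors deposited unnormalized read counts for each gene, and a table of FPKM, that is, counts divided by library total and transcript length. Each library was matched to its column by the library name in the labels and treated as 1 mouse, as titles number them; p-values measure the spread between these libraries.

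Counts were filtered with filterByExpr (minimum count 10, minimum total 15), scaled by TMM and fitted with edgeR 4.0.16 (quasi-likelihood, robust) on 6 genotype means and sex, fitted jointly over all 47 libraries. Benjamini-Hochberg adjustment ran over 19174 genes, and genes under 0.05 were called. A pooled effect is the mean of the effects within the genotypes it spans. Each standard error was derived from the F statistic of its contrast. CPM are TMM-normalised; relations between mice used log2 CPM (prior count 2) with genotype and sex means removed, and numpy 2.4.6 permutations. The step was tested on simulated data. Locations came from GENCODE M21 (GRCm38) and promoters from RefSeq (GRCm38.p6), where 8 of the 9 genes were looked up. FPKM enter the level order and ratios.

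All 9 genes are named in each comparison. Of the list of related genes, those called in the pooled or sex contrasts and the one with the largest pooled Q140 difference of each sub-list are named, except 1 gene that is not reported here; the 5 most alike genes are named for Chdh and 3 for each other gene. The members and lists were chosen with earlier results of these data known. Alternatives were DESeq2 1.42.0, its size factors in edgeR, no filter, no sex term, compared genotypes alone, plate column, library-name number (limma 3.58.1 voom), a replicate block, log2(FPKM + 0.1) and log2(FPKM + 1) in limma, and leaving out 1 mouse at a time. A linear fit of log2 CPM for the sex contrast was added after seeing the data.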

Additional observations from a re-analysis of the deposited data

How the results depend on the processing

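The number of the 9 genes called kept its value of 0 under every alternative run for the Ccdc82 and interaction contrasts. For male against female it stayed at 2 except where the number in the library name was a random block: there it was 1 and 865 rather than 2018 genes were called in all. In the linear fit of log2 CPM, added after seeing the data, it was 2 with all mice and ranged from 1 to 3 with 1 mouse left out; Cept1 was called in 47 of 47 such fits, Chkb in 44 and Chdh in 1, and the adjusted p of Chkb ranged from 0.0155 to 0.0526. The pooled Q140 difference of Chdh lay between 0.36 and 0.41 with 1 mouse left out, and was 0.34 on log2(FPKM + 0.1) and 0.15 on log2(FPKM + 1), a scale that compresses a gene below 1 FPKM. For Q140 against WT it was 0.44 with plate column as a factor, 0.20 on log2(FPKM + 1), and 0.46 to 0.54 with 1 mouse left out. Over all genes, Q140 against WT called 24 with DESeq2 rather than 6, the Ccdc82+/- background 2 with plate column and 3 with the compared genotypes alone rather than 6, and the Ccdc82-/- background 2 with the replicate block rather than 4. Mice of the same replicate number and sex did not vary together (median r 0.016 over 115 pairs, 43 above 0.1), so the numbers do not pair them; with the replicate block 2 of 9 genes were called between the sexes, Cept1 at -0.09 and Chkb at 0.08, and 0 of 9 for Ccdc82 loss. Mice with the same library-name number had a median r of 0.125 over 45 pairs, against -0.02 over 1036 pairs with other numbers. Each number was held by mice of a single sex, so sex p-values without that block treat libraries that vary together as independent. With 132 to 279 counts per library, Chdh was measured less precisely than the other 8 genes: its pooled Q140 standard error was 0.051, against 0.017 to 0.025. Of 54 groups of values, 0 had a mouse standing apart from the rest.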
